A study of Mus musculus with 6 samples.

Results

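Genomic imprinting restricts a gene's expression, wholly or in part, to the copy inherited from the mother or from the father. The genes described here are 42 imprinted genes chosen by name, and all 42 were found among the 55604 gene identifiers of the count tables. They lie at 16 loci. The 6 clusters of main interest, namely Prader-Willi, Dlk1-Meg3, Peg3, Gnas, Nnat and Peg10-Sgce, hold 24 of them, and 10 further loci hold the other 18. By their known expression in mouse, 22 are expressed from the paternal copy and 17 from the maternal copy, fully or by preference. In the remaining 3, Gnas, Grb10 and Inpp5f, the expressed copy depends on the isoform or tissue. Among the 17, the maternal preference of Atp10a, Copg2, Herc3, Commd1, Ppp1r9a and Trappc9 also depends on the tissue.

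The samples were brain tissue of C57BL/6 mice, 3 given 4-aminopyridine (4-AP) by intraperitoneal injection and 3 left untreated as controls. 4-AP blocks voltage-gated potassium channels and served in this series to induce status epilepticus, a prolonged seizure. Total RNA from both groups had been digested with RNase R, an exonuclease that removes linear RNA and spares circular RNA. The counts are reads per gene and do not separate circular from linear RNA or the maternal from the paternal copy. The labels used here give neither the brain part, the ages, the time after injection nor whether each sample was a separate animal, so p-values measure the spread between these samples, which may be technical.

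Library totals ran from 1507882 to 2721287 counts in the 4-AP group and from 2355610 to 3409055 in the controls. A single gene, Lars2, took between 12.4% and 21.4% of the counts in the 4-AP libraries and between 3.82% and 12.1% in the controls. Markers of neurons, astrocytes, oligodendrocytes and microglia were present in each library. Control replicate 1 stood apart in the summed level of 8 striatal markers, at 143 CPM (counts scaled to a common library size) against 825 and 1383 in the other controls. The 9 markers of cortical excitatory neurons summed to between 833 and 1149 CPM after 4-AP and between 1566 and 1668 CPM in the controls.

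In an imprinted cluster, a control region that carries DNA methylation on 1 parental copy sets which copy of several neighbouring genes is active, often through a long non-coding RNA. Many imprinted genes are active in neurons and in the hypothalamus, where they are known for roles in feeding, growth, hormone release and maternal care. Loss of the paternally expressed genes of the Prader-Willi region causes Prader-Willi syndrome in humans, and loss of maternal Ube3a in neurons causes Angelman syndrome.

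Of the 42 genes, 29 passed the filter on low counts and were fitted within the whole set of 11388 tested genes. Nnat, Magel2 and Ndn rose after 4-AP and none of the 29 fell. Over all tested genes 0.334% rose and 0.509% fell, 0.843% in either direction. A gene is said to rise or fall where edgeR (quasi-likelihood) gave a Benjamini-Hochberg value below 0.05. Rise and fall refer to the reads left after RNase R digestion. The amount of RNA and its survival of the digestion cannot be told apart here. At an unadjusted p under 0.05, 8 of the 29 were higher and 3 lower, against 6.29% and 7.57% of all tested genes. In 9 of the 29 all 4-AP libraries lay above all controls and in 3 below, against 8.36% and 10.4% of all tested genes. The median log2 fold change of the 29 was 0.17, and that of all tested genes was -0.01. A gene that passed the filter only through the group in which it is high had to differ, so these counts describe the tested genes and not all 42. The 42 were also chosen with earlier results of these data known, so the shares are no independent test of imprinted genes.

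Upstream sequence is shown for the 3 genes that rose, because a promoter search found motifs in these stretches. The sequences are from RefSeq on GRCm38.p6, the assembly also called mm10, read 5′ to 3′ on the plus strand, on which all 3 genes lie. Capitals mark the motif matches. The Nnat stretch also covers part of a Blcap exon on the minus strand. For Ndn only 30 bases around the match are shown, since the annotation places an untranslated region there.
Nnat, 250 bases before the start, chr2:157559828-157560077: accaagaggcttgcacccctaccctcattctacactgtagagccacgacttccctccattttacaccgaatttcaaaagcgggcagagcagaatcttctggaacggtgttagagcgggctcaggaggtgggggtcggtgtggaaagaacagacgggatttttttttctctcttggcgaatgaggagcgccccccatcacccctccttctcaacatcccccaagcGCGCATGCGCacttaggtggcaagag
Magel2, 250 bases before the start, chr7:62376729-62376978: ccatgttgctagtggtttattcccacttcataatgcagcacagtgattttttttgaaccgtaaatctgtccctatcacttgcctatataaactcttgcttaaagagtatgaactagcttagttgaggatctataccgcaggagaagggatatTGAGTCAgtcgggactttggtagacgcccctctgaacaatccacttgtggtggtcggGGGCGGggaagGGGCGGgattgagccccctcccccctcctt
Ndn, 30 bases around the match, chr7:62348244-62348273: cttcccaacacGCATGCGCaatatcgcatc

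Promoter windows of 300 bases, which run from 250 before to 50 after a start, were matched for 33 of the 42 genes, with 49 windows in all. Each motif was searched on both strands. GCATGCGC, the core of the motif of nuclear respiratory factor NRF1, was found in the windows of Nnat, Ndn and 1 of 2 Commd1 windows, which is 6.12% of the 49 windows against 2.71% of all 32851 windows in the table. In Nnat it matched on both strands, and the matches overlap. The GC box GGGCGG was in 46.9% of the windows of these genes and 35.7% of all windows, Magel2 and Ndn among them with 2 matches each. The AP-1 site TGANTCA was in 4.08% against 7.81%, with 1 match in Magel2, and the cAMP response element TGACGTCA in 6.12% against 1.79%. The latter stood in the windows of Peg3, Usp29 and Meg3; Peg3 and Usp29 start from opposite strands of 1 shared stretch, so this is a single site. The median number of CpG dinucleotides was 14 in these windows and 7 over all windows. A match is a description of the letters and says nothing about binding here.

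Neuronatin, encoded by Nnat, is a small membrane protein of the endoplasmic reticulum that is paternally expressed in neurons. Nnat lies on chromosome 2 (157560078 to 157562522, plus strand, mm10), inside an intron of the Blcap gene on the opposite strand. The 4-AP libraries held 252, 201 and 238 CPM of Nnat and the controls 93.04, 80.9 and 78.1. The groups were well apart: the lowest 4-AP library was more than double the highest control. The mean was 230 ± 26.0 CPM after 4-AP and 84.0 ± 7.94 in the controls (SD, n = 3 each). The log2 fold change was 1.45 (SE 0.16; edgeR adjusted p = 2.97e-05), and the call was made in all 15 alternative analyses.

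Blcap, a host gene with preferential maternal expression in brain whose product was first described in bladder cancer, had 44.3, 42.5 and 42.4 CPM after 4-AP and 33.6, 27.0 and 29.0 CPM in the controls. The 3 4-AP values lay above the controls, but the difference did not pass (log2 fold change 0.53, SE 0.20; edgeR adjusted p = 0.225). Within each library, Nnat had 5.68, 4.73 and 5.6 counts for every count of Blcap after 4-AP, and 2.77, 3.00 and 2.69 in the controls. This ratio does not depend on how libraries are scaled, and its groups did not overlap.

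The Prader-Willi region on chromosome 7 holds 8 of the genes, of which 6 were tested. Magel2 and Ndn, which both encode MAGE family proteins that act with ubiquitin ligases, rose. Magel2 (62377010 to 62381640) and Ndn (62346569 to 62350262) are single-exon genes on the plus strand, 26747 bases apart. Magel2 had 84.8, 42.2 and 117 CPM in the 4-AP libraries and 14.1, 6.22 and 14.3 CPM in the controls. 4-AP replicate 2 was the lowest of its group and still above every control. Means were 81.3 ± 37.5 CPM after 4-AP and 11.5 ± 4.61 in the controls (SD, n = 3 each). The log2 fold change was 2.82 (SE 0.45; edgeR adjusted p = 0.0362). Magel2 lost the call without 4-AP replicate 1 (edgeR adjusted p = 0.116) or control replicate 3 (0.067), and with limma-voom (0.0807).

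Ndn, which encodes necdin, a protein known to promote neuronal differentiation and survival, had 127, 123 and 151 CPM after 4-AP and 92.4, 62.0 and 75.0 CPM in the controls. All 4-AP values lay above the controls. The log2 fold change was 0.80 (SE 0.18; edgeR adjusted p = 0.0327), from 76.5 ± 15.3 to 134 ± 15.5 CPM (SD, n = 3 each). This call was the least stable of the 3: it was lost with scaling by total counts (log2 fold change 0.59; edgeR adjusted p = 0.132). It was also lost without 4-AP replicate 1 (adjusted p = 0.0769, same test), 4-AP replicate 3 (0.191), control replicate 2 (0.115) or control replicate 3 (0.131). Per count of Ndn, the 4-AP libraries held 0.667, 0.344 and 0.773 counts of Magel2 and the controls 0.153, 0.1 and 0.19, and the groups of this ratio did not overlap.

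The other 4 tested genes of the region gave no call. Snrpn, which encodes a splicing protein of small nuclear ribonucleoproteins, had 52.8, 59.0 and 70.9 CPM after 4-AP and 58.1, 64.6 and 60.7 CPM in the controls, with overlapping groups (log2 fold change -0.012, SE 0.18). Snhg14 is the long host transcript of the region's small nucleolar RNAs and runs antisense to Ube3a, which it silences on the paternal copy in neurons. It had 332, 356 and 335 CPM after 4-AP and 328, 285 and 315 CPM in the controls. Each 4-AP value of Snhg14 was above each control, but by little (log2 fold change 0.14, SE 0.13; edgeR adjusted p = 0.723).

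Ube3a, the ubiquitin ligase gene expressed from the maternal copy in neurons, had 42.4, 75.0 and 58.5 CPM against 40.9, 53.7 and 62.5 CPM (log2 fold change 0.19, SE 0.22). Atp10a, a phospholipid flippase gene, had 9.13, 26.1 and 23.4 CPM against 21.7, 21.8 and 24.1 (log2 fold change -0.16, SE 0.29). The groups overlapped in both, and 4-AP replicate 1 was the lowest 4-AP library for each. Snrpn shares 34.1% of its exonic bases with other annotated genes, mostly on the same strand, and Ube3a 27.3%, all on the opposite strand. How reads there were assigned depends on the strand setting and on the handling of reads that overlap several genes, neither of which is stated. The 2 remaining genes had few reads: Mkrn3, a ring-finger gene known as a brake on puberty, had 1, 7 and 1 counts after 4-AP and 3, 6 and 4 in the controls. Peg12 had 3 counts, all in 4-AP replicate 3.

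**Figure D1:**
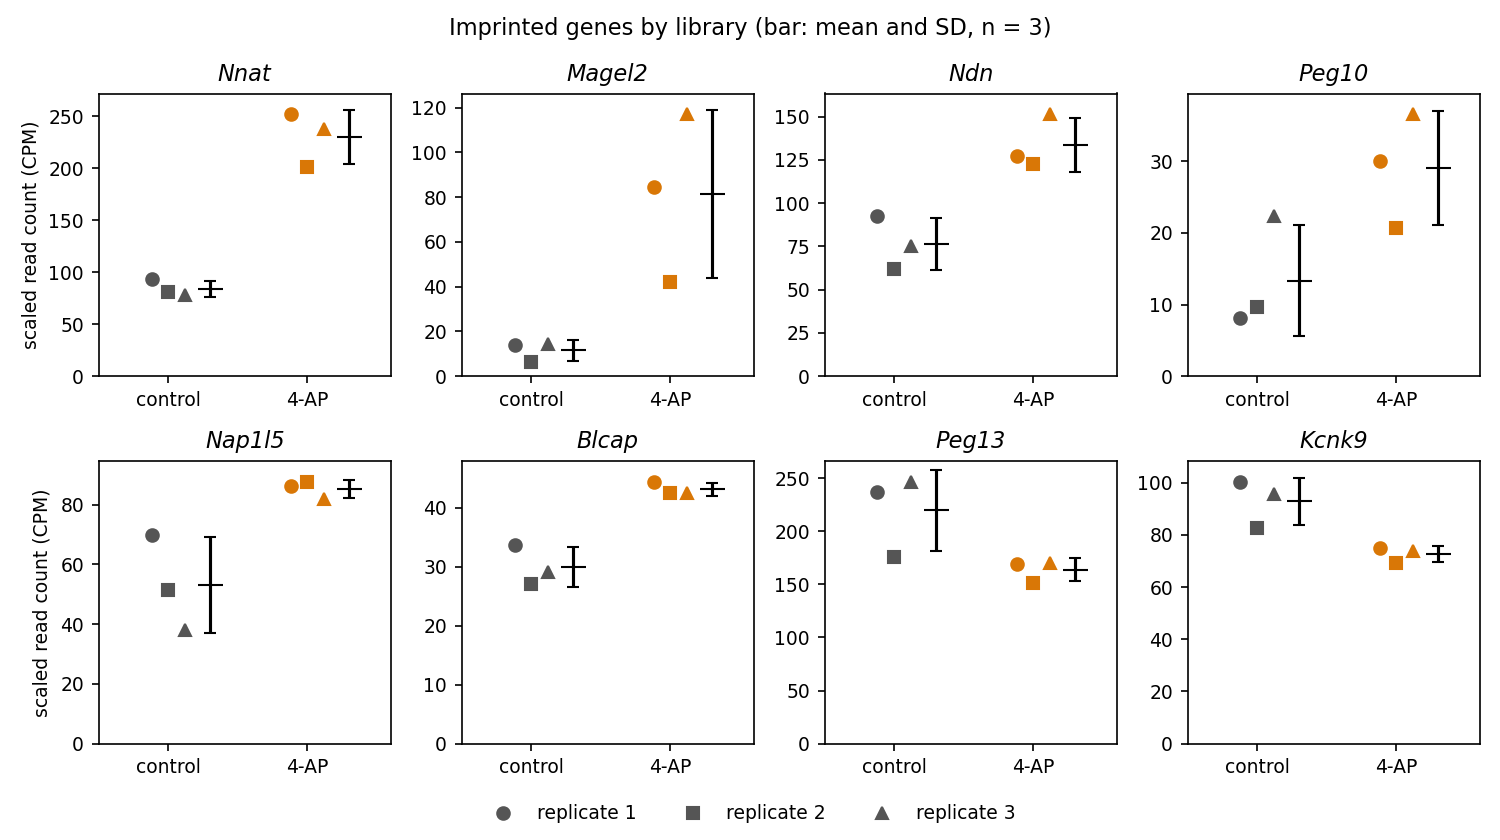
Scaled read count (CPM, vertical axes, each starting at 0) of 8 imprinted genes in the 3 control and 3 4-AP libraries. Symbols give the replicate number, and the bar beside each group is the mean with its SD. Nnat, Magel2 and Ndn passed the test; Peg10, Nap1l5, Blcap, Peg13 and Kcnk9 did not, and the Peg10 groups overlap at control replicate 3.

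Sums of several marker lists were apart between the groups in which Nnat, Magel2 and Ndn rose. The 19 hypothalamic markers summed to 67.8, 49.3 and 89.2 CPM in the 4-AP libraries and to 17.9, 7.26 and 4.91 in the controls. Oxytocin (Oxt), vasopressin (Avp) and thyrotropin-releasing hormone (Trh) passed the test, out of 4 tested. The fourth, Pomc, was at a log2 fold change of -0.60 (SE 1.14) and made up 14.5 of the 17.9 CPM of control replicate 1. Oxt, Avp and Trh had 0, 3 and 14 counts in the controls as a group and passed the low-count filter only through the 4-AP group. Such genes had to differ, so these calls are no independent support. Of the 19 markers, 12 had the higher mean after 4-AP. Ghrh, Kiss1, Rax, Hmx2 and Hmx3 were at 0 counts in all libraries, 6 of the 19 were at 0 throughout the 4-AP group and 10 throughout the controls. Within the 4-AP group, Nnat, Magel2, Ndn and the summed hypothalamic markers were all lowest in replicate 2. Magel2, Ndn and the marker sum were highest in replicate 3, but Nnat was highest in replicate 1. Within the controls the hypothalamic sum was lowest in replicate 3, where Magel2 was at 14.3 CPM, nearly the same as the 14.1 CPM of replicate 1. The order of the control sums depends on Pomc, without which replicate 1 would be the lowest. Sums were also higher in every 4-AP library for monoaminergic neurons (17.0 to 32.2 against 6.23 to 6.69 CPM), choroid plexus (16.3 to 81.1 against 4.15 to 13.4) and microglia (428 to 537 against 337 to 404). No marker of these lists passed the test. Cx3cr1 made up 328 to 404 CPM of the microglia sums after 4-AP, and 4 of the 6 microglia markers had the higher mean. Ttr made up 55.0 CPM of the choroid plexus sum of 4-AP replicate 2. Lower sums in every 4-AP library were found for the pan-neuronal (1982 to 2366 against 2442 to 2819 CPM) and astrocyte lists (2080 to 2409 against 2702 to 2833). The astrocyte sum was lower through Slc1a2, which fell (log2 fold change -0.63, SE 0.14), while 5 of the 6 astrocyte markers had the higher mean after 4-AP. All 9 cortical excitatory markers had the lower mean after 4-AP, and 3 of them, Slc17a7, Neurod2 and Nrgn, fell. Without control replicate 1, the library low in striatal markers, Nnat, Magel2 and Ndn passed with log2 fold changes of 1.54, 3.05 and 0.98. The differences in the other lists remain when it is left out. Without 4-AP replicate 1 only Nnat passed. The part of regional and cell type composition in the changes of Nnat, Magel2 and Ndn was not tested, and in bulk tissue fewer cells of a type and less RNA per cell cannot be told apart.

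**Figure D2:**
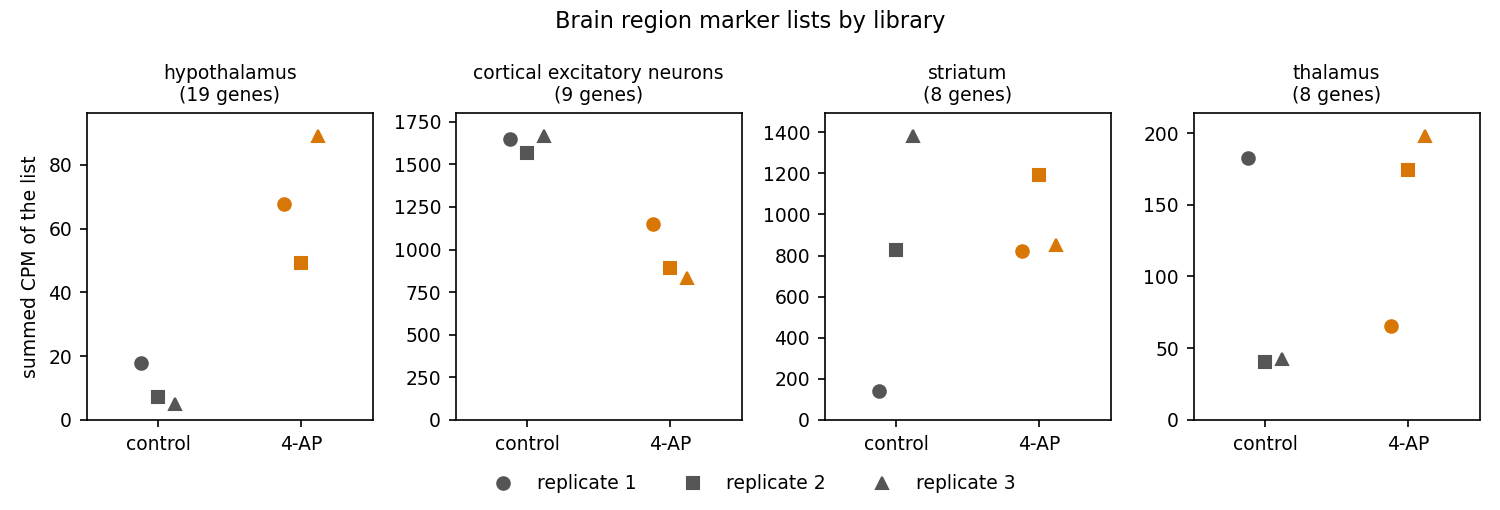
Summed CPM (vertical axes from 0) of marker lists for 4 brain regions in each control and 4-AP library, with symbols for the replicate number. Hypothalamic markers sum to between 49.3 and 89.2 CPM after 4-AP and between 4.91 and 17.9 in the controls. Cortical markers are lower in every 4-AP library, and control replicate 1 is low in striatal (143 CPM) and high in thalamic markers (183 CPM).

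The Peg10-Sgce cluster on chromosome 6 gave the next largest difference. Peg10, a paternally expressed gene derived from a retrotransposon gag-pol sequence and needed for the placenta, had 29.99, 20.7 and 36.5 CPM after 4-AP and 8.17, 9.60 and 22.3 CPM in the controls. Control replicate 3 lay above 4-AP replicate 2, so the groups overlapped. The log2 fold change was 1.15 (SE 0.34; edgeR adjusted p = 0.115), and it passed at 1.67 without control replicate 3 (adjusted p = 0.0336, same test).

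Sgce encodes epsilon-sarcoglycan, whose loss from the paternal copy causes myoclonus-dystonia in humans. It starts 98 bases from Peg10 on the opposite strand and had 22.8, 30.4 and 26.3 CPM after 4-AP against 23.3, 28.3 and 23.2 (log2 fold change 0.098, SE 0.23). Ppp1r9a, which encodes the actin- and phosphatase-binding synaptic protein neurabin, had 353, 425 and 357 CPM against 288, 434 and 447 (log2 fold change -0.041, SE 0.16). The groups overlapped in both, and both log2 fold changes were smaller than their SE. The last gene, Asb4, of an ubiquitin ligase adaptor family, had 3, 0 and 1 counts after 4-AP and 0 in each control.

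In the Peg3 cluster both tested genes had higher means after 4-AP without passing. Peg3, a zinc-finger gene known for roles in maternal behaviour, had 271, 338 and 384 CPM after 4-AP and 306, 281 and 235 CPM in the controls (log2 fold change 0.27, SE 0.15). Usp29, a ubiquitin peptidase gene that starts beside Peg3 on the other strand, had 40.4, 24.7 and 37.3 CPM against 29.2, 25.4 and 19.2 (log2 fold change 0.43, SE 0.24; edgeR adjusted p = 0.474 for Usp29 and 0.48 for Peg3). In each gene 1 4-AP library lay within the range of the controls. The maternally expressed zinc-finger gene Zim1 was under the filter, with 9, 14 and 3 counts after 4-AP and 4, 7 and 3 in the controls.

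The Dlk1-Meg3 cluster on chromosome 12 could be tested only through its maternal non-coding RNAs Meg3 and Mirg. Meg3 had 100.4, 73.6 and 133 CPM after 4-AP and 126, 74.4 and 148 in the controls (log2 fold change -0.19, SE 0.26). Mirg, the host transcript of a microRNA group, had 74.3, 74.0 and 121 CPM against 80.8, 66.9 and 69.2 (log2 fold change 0.30, SE 0.20). For Mirg 4-AP replicate 3 was high while the other 4-AP libraries lay among the controls, and without it the log2 fold change was 0.035. The deiodinase gene Dio3, which encodes an enzyme that inactivates thyroid hormone, had 5 counts after 4-AP and 8 in the controls. Dlk1, Rtl1 and Rian were listed at 0 in every library. Rian is a neuronal non-coding RNA, so an exact 0 in all libraries is not read as absence of the RNA; Phlda2 was the only other member listed at 0 throughout.

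Gnas, which encodes the stimulatory G protein alpha subunit and further transcripts of either parental copy, had 116, 93.3 and 97.2 CPM after 4-AP and 101, 69.0 and 83.0 CPM in the controls. The groups overlapped (log2 fold change 0.28, SE 0.18; edgeR adjusted p = 0.537). The gene-level count adds its maternal, paternal and biallelic transcripts, and 22.0% of its exonic bases are shared with other genes. An opposite change of its isoforms would not be seen.

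**Figure D3:**
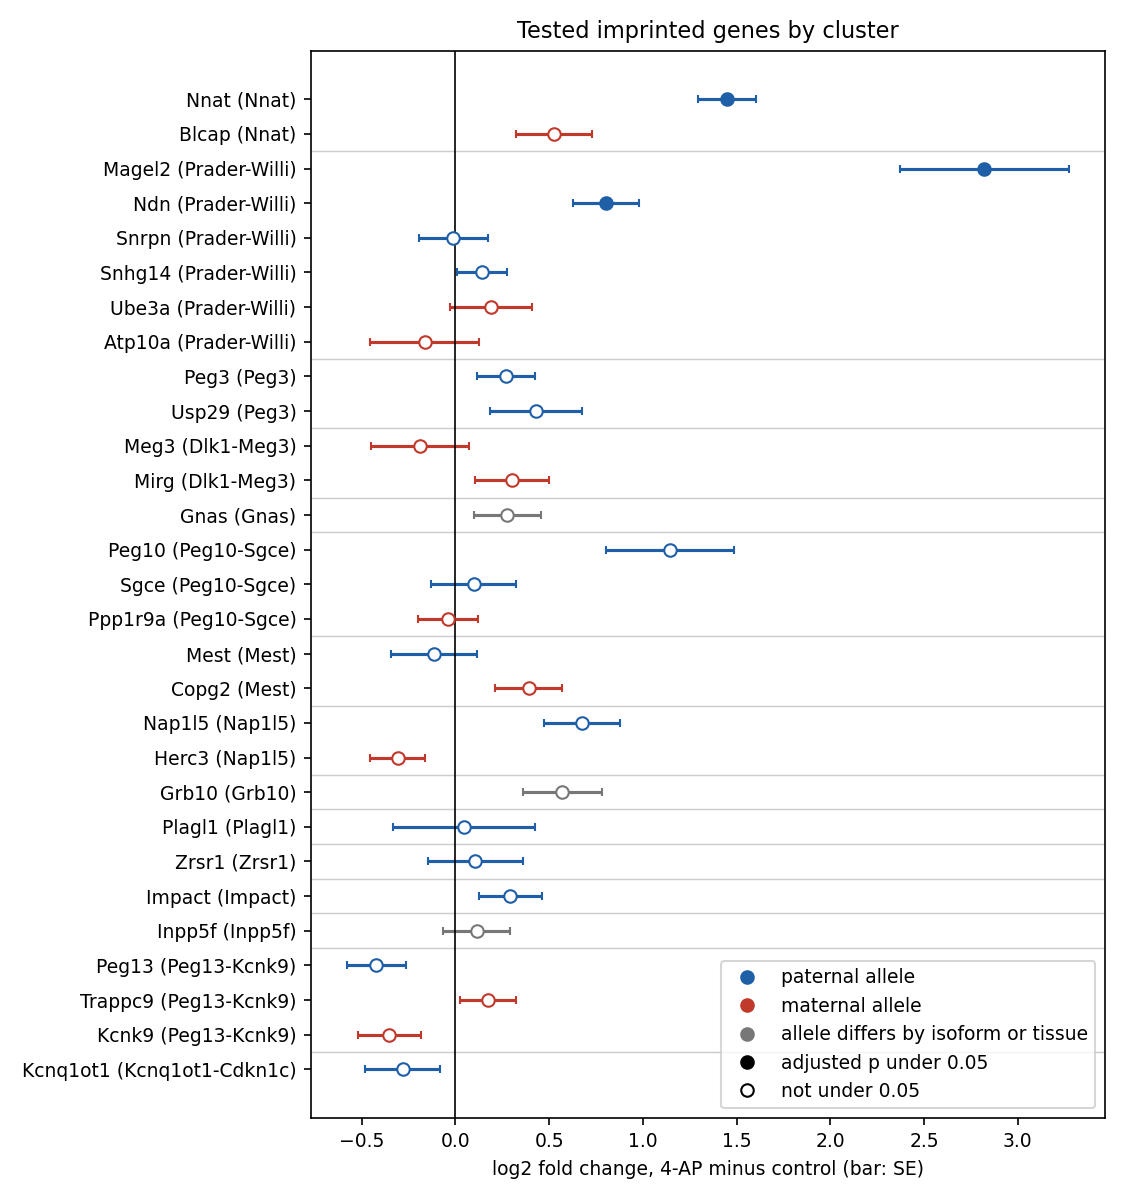
Log2 fold change of 4-AP against control (horizontal axis, bars are SE) for the 29 tested imprinted genes, grouped by locus and coloured by the expressed parental copy. Filled points mark an adjusted p under 0.05. Magel2 (2.82), Nnat (1.45) and Ndn (0.80) are filled, and Peg13 has the lowest value (-0.42).

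At the 10 other loci 13 of 18 genes were tested and none passed. Nap1l5, a paternally expressed retrogene of the nucleosome assembly protein family, had 86.1, 87.5 and 81.9 CPM after 4-AP and 69.8, 51.4 and 37.9 CPM in the controls. All 4-AP values lay above the controls (log2 fold change 0.68, SE 0.20; edgeR adjusted p = 0.110), and the gene passed at 0.93 without control replicate 1 (adjusted p = 0.0242, same test). Its host Herc3, a ubiquitin ligase family gene with maternal bias in brain, had 211, 210 and 192 CPM against 267, 280 and 212. Every 4-AP value of Herc3 lay below the controls, narrowly at control replicate 3 (log2 fold change -0.31, SE 0.15; edgeR adjusted p = 0.354).

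Grb10, an adaptor of insulin and growth factor receptors that is paternally expressed in neurons and maternally in other tissues, had 38.5, 44.0 and 49.7 CPM after 4-AP and 34.6, 29.6 and 24.1 in the controls. The groups did not overlap (log2 fold change 0.57, SE 0.21; edgeR adjusted p = 0.206). Copg2, a coat protein subunit gene of intracellular vesicles, was at a log2 fold change of 0.39 (SE 0.18) and also did not overlap. Its neighbour Mest was at -0.11 (SE 0.23), and the pair share exonic bases at their 3′ ends, 23.1% of Mest and 17.8% of Copg2. Impact, a translation regulator gene, was at 0.29 (SE 0.17), Trappc9 at 0.17 (SE 0.15), Inpp5f at 0.11 (SE 0.18), Zrsr1 at 0.11 (SE 0.25) and Plagl1 at 0.046 (SE 0.38).

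The lowest values were at the Peg13-Kcnk9 locus on chromosome 15. Peg13, a paternally expressed non-coding RNA inside an intron of Trappc9, had 170, 152 and 170 CPM after 4-AP and 236, 176 and 246 CPM in the controls. Kcnk9, a maternally expressed tandem-pore potassium channel gene that sets resting conductance in neurons, had 75.0, 69.3 and 73.8 CPM against 100.3, 82.7 and 95.5. In both genes all 4-AP libraries lay below all controls, and neither passed (Peg13 log2 fold change -0.42, SE 0.16, edgeR adjusted p = 0.200; Kcnk9 -0.35, SE 0.17, edgeR adjusted p = 0.351). Kcnq1ot1, the paternal antisense RNA of the Kcnq1 locus, was at -0.28 (SE 0.20).

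Members below the filter at these loci had few reads. Commd1 had 23 counts after 4-AP and 26 in the controls, or means of 4.03 and 2.74 CPM with overlapping groups. Cdkn1c, a growth-restraining cyclin-dependent kinase inhibitor gene, had 0, 5 and 3 counts against 7, 19 and 6. H19 had 6 against 4, and the growth factor gene Igf2 had 4 against 4. These genes were not tested in the main analysis; in these libraries 3 counts are worth between 0.778 and 2.19 CPM.

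Ratios of counts within a library were taken for 7 pairs of nested or neighbouring genes. Nap1l5 had 0.407, 0.416 and 0.426 counts per count of Herc3 after 4-AP and 0.261, 0.183 and 0.179 in the controls. Peg13 had 1.13, 1.18 and 1.14 counts per count of Trappc9 against 1.83, 1.46 and 1.91. With Nnat in Blcap, the groups did not overlap for 3 of the 4 paternally expressed genes nested in a host: the ratios of Nnat and Nap1l5 were higher after 4-AP, and that of Peg13 was lower. Among 322 pairs of tested genes of which one lies inside the span of the other, the groups did not overlap in 15.2%. Commd1 was not tested and is in none of them, so the 4 pairs were not drawn on the same basis. Nnat, Nap1l5 and Peg13 were each apart between the groups on their own, so their ratios reuse those values and are no separate result. For Zrsr1 in Commd1 the ratio was 13.3, 4.33 and 5.75 against 7.60, 9.36 and 8.80, with few Commd1 counts. Peg10 to Sgce was 1.31, 0.682 and 1.39 against 0.351, 0.339 and 0.962, and overlapped. The exact two-sided permutation test gave p = 0.1 for Nnat/Blcap, Nap1l5/Herc3, Peg13/Trappc9 and Magel2/Ndn, the smallest p that 3 against 3 libraries allow, and an adjusted p of 0.175 over the 7 pairs. This test therefore cannot bring such a ratio under 0.05 with these group sizes.

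**Figure D4:**
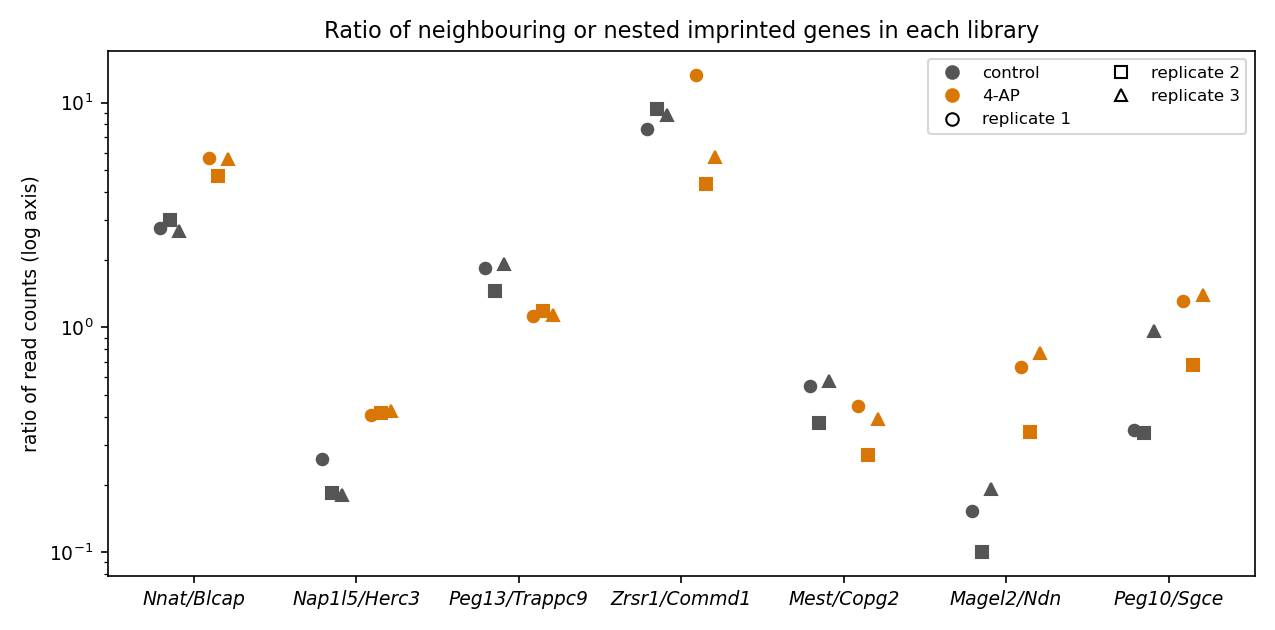
Ratio of read counts of 7 pairs of nested or neighbouring imprinted genes in each library (log axis), with colour for the group and symbol for the replicate. Control and 4-AP points are separate for Nnat/Blcap, Nap1l5/Herc3, Peg13/Trappc9 and Magel2/Ndn, and overlap for Zrsr1/Commd1, Mest/Copg2 and Peg10/Sgce.

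By parental copy, 16 of 22 paternally expressed genes were tested, of which 3 rose and 0 fell. At an unadjusted p under 0.05, 5 were higher and 1 lower. Their median log2 fold change was 0.20, with 12 above 0, and it was -0.0068 with scaling by total counts. Of 17 maternally expressed genes 10 were tested; 0 rose and 0 fell, 2 being higher and 2 lower at an unadjusted p under 0.05. Their median was 0.067, with 5 above 0; it was -0.14 with total counts and -0.032 without control replicate 1. The 3 genes whose expressed copy varies were all above 0, from 0.11 to 0.57. The difference between the paternal and maternal sets was not tested, and Peg13 shows that a paternally expressed gene could also have the lowest value. The expressed copies were assigned from known expression and not measured here, and some maternal preferences depend on the tissue.

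Levels per kilobase of exon set genes beside each other by the reads left after RNase R digestion. Their order therefore does not give the order of the genes by amount of RNA in the tissue. In the controls Peg13 (46.4 CPM per kb) and Nnat (45.9) were the highest, and their difference was small beside their spread. Nap1l5 (28.7), Snrpn (28.3), Herc3 (27.7) and Ppp1r9a (26.8) came next and lay close together. Magel2 was 24th of the 42 in the controls at 2.49 CPM per kb and stood at 17.6 after 4-AP, while Nnat went from 45.9 to 126. The 5 tested single-exon genes were Peg13, Ndn, Magel2, Zrsr1 and Kcnq1ot1, whose log2 fold changes ran from -0.42 to 2.82 (median 0.11). In the 24 tested genes with several exons the range was -0.35 to 1.45 (median 0.18). Back-splicing, which makes most circular RNAs, uses splice sites, and the annotation lists none within these single-exon genes. The counts do not separate circular from linear RNA, so the form of RNA behind these reads was not tested.

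**Figure D5:**
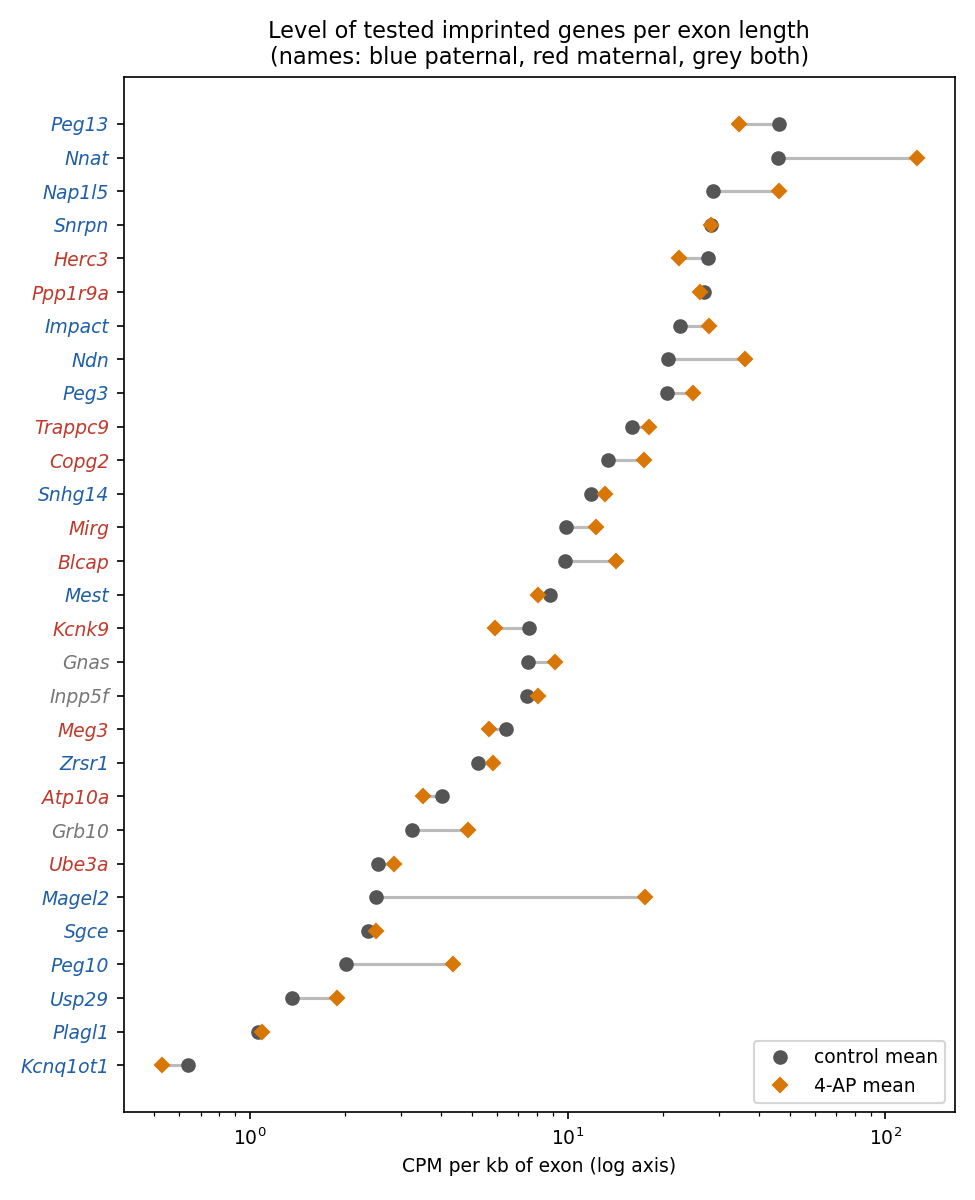
Mean CPM per kb of exon (log axis) of the 29 tested imprinted genes in control (circles) and 4-AP brain (diamonds), ordered by the control level, with gene names coloured by the expressed parental copy. Nnat (45.9 to 126) and Magel2 (2.49 to 17.6) have the longest lines, whereas Snrpn stays at 28.

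A further 39 imprinted genes outside the list were read from the same fit; 38 were in the tables and 18 were tested. Sfmbt2, a paternally expressed Polycomb-related gene, rose from 27.0, 24.6 and 20.1 CPM in the controls to 48.2, 38.6 and 57.7 after 4-AP, and the groups did not overlap. Its log2 fold change was 0.98 (SE 0.22; edgeR adjusted p = 0.0357). It no longer passed when 4-AP replicate 1 was dropped (edgeR adjusted p = 0.0979), nor without 4-AP replicate 3 (0.200), control replicate 2 (0.0902) or control replicate 3 (0.165), nor with total counts (0.102). No other gene of this set passed and none fell. Begain, a postsynaptic density gene near Dlk1, had the smallest p of the negative values (log2 fold change -0.54, SE 0.18; edgeR adjusted p = 0.153). It passed only with scaling by total counts (adjusted p = 0.0373, same test). The median of the 18 was -0.051, with 8 above 0.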

How the data were processed

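RNA of 6 mouse brain samples was sequenced after RNase R digestion, per the labels' protocols. The authors deposited whole-number read counts per gene, 1 table per library, for which the submitters' processing notes list STAR 2.5.3a, featureCounts and mm10. Which annotation and strand setting were used, and how reads with several alignments were counted, is not stated in those notes. Identifiers were matched to GENCODE M21 (54809 of 55604).

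Low genes were removed with filterByExpr (a minimum count of 10 and a minimum total of 15). Libraries were scaled with TMM, and edgeR 4.0.16 fitted a robust quasi-likelihood model with treatment alone, under R 4.3.3. Benjamini-Hochberg adjustment covered all 11388 tested genes, with a threshold of 0.05. SEs come from the fold change and the F statistic. CPM use scaled library sizes. Levels per kb use the union of exons. Alternatives used DESeq2 1.42.0 and limma 3.58.1, other scalings and filters, abundant genes left out, a block and each library left out. The genes over 1% of a library were left out as an alternative chosen after seeing the data.

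On simulated counts over 11388 genes with the libraries of this comparison, edgeR recovered 10.4% of genes changed 1.5-fold, 49.9% changed 2-fold and 91.2% changed 4-fold; 7.2% of its calls were unchanged genes. All library pairs differed by more than sampling noise (lowest chi-square per degree of freedom 8.53). Floors cover only the counting error of the group at 0. The members, lists and expressed copies were chosen with earlier results of these data known. Values in every library are given, by rule, for members that passed and for tested members of the 6 main clusters, and other tested members by fold change; those of Nap1l5, Herc3, Grb10, Peg13 and Kcnk9 were added after their values were seen. Of the other imprinted genes, those that passed are named, otherwise the smallest p in each direction.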

Additional observations from a re-analysis of the deposited data

How the results depend on the processing

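Nnat kept its call in all 15 alternatives, Magel2 in 12, Ndn and Sfmbt2 in 10. Over all alternatives Nnat ranged from 1.22 to 1.57, Magel2 from 2.46 to 3.19 and Ndn from 0.59 to 0.98. Of the 42 genes, 5 rose with the replicate block, Peg10 (1.20) and Nap1l5 (0.71) being added; leaving out 1 library gave between 1 and 4, the lowest without 4-AP replicate 1. None fell in any alternative. The series' design text calls the tissue paired without saying what a number shares. Deviations of same-numbered libraries correlated at -0.0019, 0.113 and 0.0245, and those of libraries with different numbers at between -0.101 and 0.0636. With 3 libraries in each group, such correlations cannot decide whether the samples were paired. Of the other imprinted genes, 0 rose and 1 fell with total counts, 2 rose with no filter and 2 with a CPM above 1 in 3 libraries, and 0 to 1 rose when a library was left out, 0 without 4-AP replicate 1 or 3 or control replicate 2 or 3. Over all genes, 131 rose and 197 fell with no filter, 80 and 99 with DESeq2, and 112 and 153 with the block. With total counts 293 fell, and leaving out a library gave 16 to 105 higher and 10 to 54 lower. Total counts moved the median of all genes to -0.22, against -0.01, and turned Snhg14 to -0.068, Sgce to -0.11, Plagl1 to -0.15, Zrsr1 to -0.12, Inpp5f to -0.098 and Trappc9 to -0.044. Snrpn, near 0, was at 0.0064 with relative log expression, 0.0060 with DESeq2 and 0.0043 with genes over 1% of a library left out. Leaving out libraries also turned signs of uncalled genes, with ranges of -0.13 to 0.073 for Snrpn, -0.028 to 0.37 for Ube3a, -0.46 to 0.15 for Atp10a, -0.42 to 0.040 for Meg3, -0.0053 to 0.22 for Sgce, -0.21 to 0.067 for Ppp1r9a, -0.30 to 0.038 for Mest, -0.14 to 0.20 for Plagl1 and -0.11 to 0.36 for Zrsr1. Peg10 passed with no filter (1.11) and Begain fell with total counts (-0.75). The causes were not tested. The 13 members under the filter had too few counts for the main analysis.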

Other observations

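Calcr, the calcitonin receptor gene, is maternally expressed in brain and was under the filter in the main analysis. Its counts were 2, 8 and 7 after 4-AP and 0 in each control. This is a 9.22-fold difference when the controls as a group are set at a floor of 3 counts. The counting error of the 17 counts after 4-AP is not in this value. With no filter on low counts Calcr passed edgeR's test (adjusted p = 0.0222). It was singled out after its values were seen, so this is no independent support.

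Small RNA genes inside the clusters held few reads. The Prader-Willi span contains 210 annotated small nucleolar RNA genes and 20 microRNA genes, which together had 41, 78 and 60 counts after 4-AP and 121, 113 and 72 without it, against 458 to 1100 counts of the host transcript Snhg14. In the Dlk1-Meg3 span, 23 small nucleolar RNA and 67 microRNA genes together had 17, 33 and 15 counts against 33, 26 and 20. These counts are not scaled to library size, and the control libraries ran to larger totals. Of 9 other genes tested inside the Prader-Willi span none passed, with log2 fold changes from -0.58 to 0.60.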
